A study of Homo sapiens with 8 samples.

Results

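The genes described here are 10 chemokines and interleukins that intestinal epithelium can make: *IL8* (now named *CXCL8*), *CXCL1*, *CXCL2*, *CXCL3*, *CXCL5*, *CXCL14*, *CCL20*, *IL1A*, *IL18* and *IL32*. They were chosen by name, as the probes whose gene name in the array files is one of these 10, among the 36337 gene names carried by probes that are not controls. The 10 genes had 14 probes, and 7 of the genes had at least 1 probe bright enough to be tested.

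RNA came from clones of HCT116, a cell line from a human colorectal carcinoma. The clones CONT1 and CONT2 carried the control plasmid pcDNA6.2-GW/EmGFP-miR-neg, whereas TET1-KD1 and TET1-KD2 stably expressed different artificial miRNAs against *TET1*, an enzyme that oxidizes 5-methylcytosine. All 4 clones had been selected with 0.6 mg/ml G418, and each is a colony grown from transfected cells. Each clone was analyzed untreated and after 72 h in 1 µM 5-aza-dC, a cytidine analog that traps DNA methyltransferases once built into DNA, which gave 8 one-color arrays and 2 clones per condition. The titles give these treatments. A separate field in the labels instead gives mock treatment for every control array and 5-aza-dC for every knockdown array, and the titles were followed.

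Chemokines are small secreted proteins that attract leukocytes. *IL8* and *CXCL1*, *CXCL2*, *CXCL3* and *CXCL5* bind CXCR2 and attract neutrophils. They lie in a cluster on chromosome 4. *CCL20* attracts CCR6-positive dendritic cells and lymphocytes, and *CXCL14* is a chemokine made by many epithelia. *IL1A* and *IL18* belong to the IL-1 family, which signals through MYD88 and NF-kB, and *IL32* is a cytokine with several splice forms. NF-kB, a family of transcription factors switched on by IL-1 and TNF, is a well-known activator of the neutrophil-attracting chemokines through a short site just before their transcription start.

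This stretch of sequence is shown for the 5 chemokines of the cluster, since their probes gave most of the differences described here. Each line holds the 100 bases before the RefSeq transcription start (GRCh38.p14, 5′ to 3′ along the gene), with the letters GGAATTTCC in capitals.
IL8, chr4:73740469-73740568, strand +: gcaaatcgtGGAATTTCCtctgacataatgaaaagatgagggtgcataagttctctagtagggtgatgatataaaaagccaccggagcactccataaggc
CXCL1, chr4:73869293-73869392, strand +: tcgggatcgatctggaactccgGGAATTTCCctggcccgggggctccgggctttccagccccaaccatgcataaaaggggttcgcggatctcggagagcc
CXCL2, chr4:74099196-74099295, strand -: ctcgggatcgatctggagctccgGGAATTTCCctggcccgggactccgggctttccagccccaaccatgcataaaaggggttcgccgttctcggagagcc
CXCL3, chr4:74038690-74038789, strand -: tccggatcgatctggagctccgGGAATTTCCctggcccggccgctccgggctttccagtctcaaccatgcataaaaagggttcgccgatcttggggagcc
CXCL5, chr4:73998678-73998777, strand -: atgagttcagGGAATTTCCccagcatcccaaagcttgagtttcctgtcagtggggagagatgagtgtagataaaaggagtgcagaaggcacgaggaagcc
All 5 windows held GGAATTTCC once, on the strand of the gene, with its first base 77 to 91 bases before the start. The motif was chosen after these sequences were read. It was searched on both strands, as GGAATTTCC or GGAAATTCC, in windows of 300 bases (250 before to 50 after the start), and 162 of 35116 RefSeq windows held it (0.461%). The windows of *CXCL14*, *CCL20*, *IL1A* and *IL32* did not have these letters, and *IL18* had no window in the table used here. *CXCL1* and *CXCL3* shared 90 of the 100 bases shown. These genes are closely similar, and how far their probes detect each other's transcripts was not assessed here.

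The same windows differ in the CpG sites at which 5-aza-dC prevents methylation. The median RefSeq window held 14 CpG, with quartiles of 4 and 28. *CXCL1* and *CXCL2* each had 22, *CXCL3* had 24 and *CXCL14* had 31. *CXCL5* had 9, *IL8* had 4 and *CCL20* had 3, while both windows of *IL1A* had 8 and both windows of *IL32* had 7. The count of CpG is a property of the reference sequence, and methylation was not measured on these arrays.

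Signals are given as log2 of the spot intensity after each array was scaled by its 75th percentile, and each was compared with the same probe only, not between probes. On the 8 arrays 29490 to 34276 spots were above background. *TET1* itself, on its brightest probe, read 9.70 and 9.75 in untreated CONT1 and CONT2, against 8.65 in TET1-KD1 and 9.41 in TET1-KD2. The clones did not overlap, but the difference of -0.69 (SE 0.29, limma, n = 2 clones a side) had an adjusted p of 0.61. A second *TET1* probe differed by -0.98 (SE 0.38, adjusted p = 0.58). The remaining tested probe was below background in the untreated knockdown clones and at least 1.2-fold lower there (adjusted p = 0.37). By RT-qPCR, a separate measurement, the paper reported reduced *TET1* mRNA in both knockdown clones, more so in TET1-KD1 than in TET1-KD2. Both arrays of treated control clones sat on another slide, scanned 230 days after the one with the other 6 arrays. Spike-in controls present in equal amounts on every array read between 0.02 and 1.00 lower (log2, before scaling) on that second slide. For each comparison that uses the treated control arrays, slide and condition cannot be told apart, whereas the response of the knockdown clones and the comparison of untreated clones lie within the first slide.

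**Figure D1:**
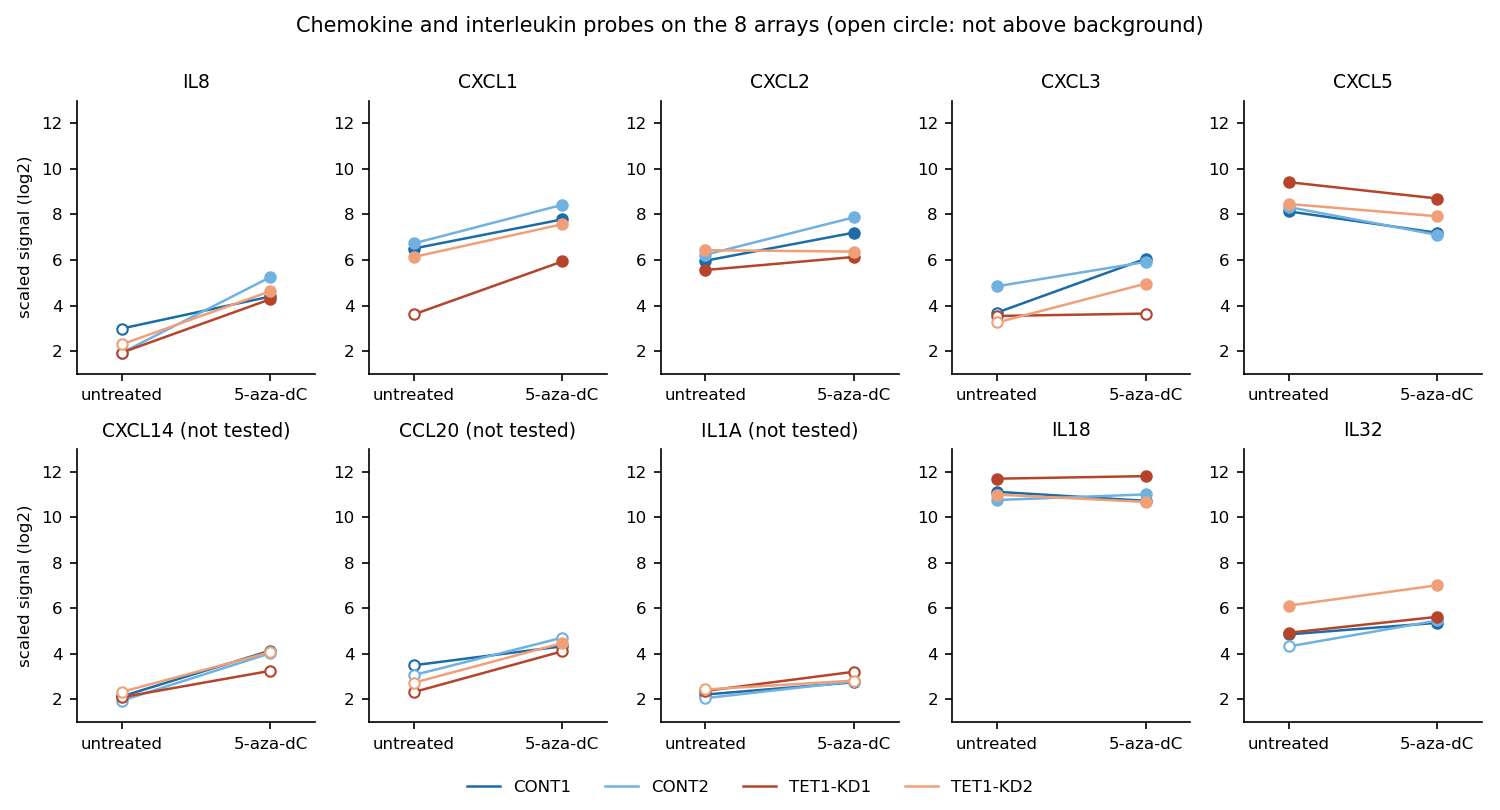
Scaled signal (log2, y axis) of the brightest tested probe, or of the only or first probe where none was tested, for each of the 10 genes, untreated and after 5-aza-dC (x axis). Each line is a clone, and open circles are arrays on which the probe was not above background. *IL8* is open on all 4 untreated arrays, *CXCL5* slopes down in all 4 clones, and *IL18* stays between 10.67 and 11.80.

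In a limma fit that did not pair the arrays of a clone, *IL8*, *CXCL2* and *CXCL3* were called higher in the control clones after 5-aza-dC. *IL8* was called higher in the knockdown clones as well. In the control clones 3 of the 7 tested genes were called (adjusted p below 0.05), all higher, beside 41.8% of all 27286 tested probes called in that comparison. In the knockdown clones 1 of 7 was called, beside 11.8% of all tested probes. By unadjusted limma p below 0.05, 4 of 7 passed in the control clones, beside 51.2% of all tested probes, and 1 of 7 in the knockdown clones, beside 27.9%. The counts called were close to the share of all probes called in either direction. All the genes called were higher, however. Of all tested probes, 19.2% were called higher in the control and 8.90% in the knockdown clones. *CXCL3* in the control clones was not called with each clone compared with itself (clone as a block, adjusted p = 0.055). Nor was *IL8* in the knockdown clones (0.052). *CXCL1*, *CXCL5* (lower) and *IL32* were then called in the control clones, beside 50.4% of all tested probes. *CXCL1* was then called in the knockdown clones, beside 14.8%. For the response of the control clones, slide and treatment cannot be told apart. The median difference of the 7 genes was 1.44 in the control and 0.80 in the knockdown clones (log2), against -0.08 and -0.07 over all tested probes. *IL8* and *CXCL3* passed the filter on brightness only through 1 treated condition, in which they were high, and the median of the other 5 genes was 0.83 and 0.26. Of these other 5 genes, only *CXCL2* was called in the control clones, and none was called in the knockdown clones. In bulk RNA a change in the number of producing cells and a change in RNA per cell cannot be told apart.

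*IL8* encodes the main neutrophil-attracting chemokine of human epithelium. Its tested probe, at chr4:74609265-74609324 (hg19, plus strand), read 2.99, 1.92, 1.93 and 2.29 in untreated CONT1, CONT2, TET1-KD1 and TET1-KD2. After 5-aza-dC the same clones read 4.40, 5.25, 4.28 and 4.63. Every treated array was above every untreated one. No untreated array was above background, and of the treated arrays only CONT1 was not. The untreated level is therefore only a bound. In the control clones the fitted difference was 2.37 (adjusted p = 0.0071), with no fold given because treated CONT1 was not above background. In the knockdown clones the fitted difference was 2.34 (adjusted p = 0.020), and the treated level was at least 1.04-fold higher. With each clone compared with itself (clone as a block), the adjusted p was 0.022 in the control and 0.052 in the knockdown clones, so the second call was lost. With a GC trend subtracted too, the control call was lost (0.056) and the knockdown call was not (0.040). The knockdown call was lost as well with normexp (0.095), with 50 added (0.10) and without any 1 of the 4 knockdown arrays, where the adjusted p ran from 0.051 to 0.11. A second *IL8* probe, at chr4:74607982-74608041, was not above background on any array.

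*CXCL1*, a neutrophil attractant first known as a melanoma growth factor, had the widest range over the arrays among the brightest tested probes of the 7 genes. Its brightest probe (chr4:74736850-74736909) read 6.50 and 6.73 in untreated CONT1 and CONT2, and 3.61 and 6.13 in untreated TET1-KD1 and TET1-KD2. After treatment it read 7.78, 8.42, 5.93 and 7.57. TET1-KD1 was the lowest clone in either state, and was not above background untreated. Each clone read higher after 5-aza-dC than before, by 1.28, 1.70, 2.33 and 1.44. The knockdown clones lay far apart, and neither response was called: the difference was 1.49 in the control clones (SE 0.88, adjusted p = 0.22) and 1.88 in the knockdown clones (SE 0.88, adjusted p = 0.23). With the clone as a block, which removes the distance between clones, the same differences had an SE of 0.27 and both were called (adjusted p = 0.016 and 0.025). The second *CXCL1* probe (chr4:74735646-74735705) also read higher in all 4 clones, by 0.83 to 2.02, with adjusted p = 0.083 in the control and 0.26 in the knockdown clones. With the clone as a block it was called in the control clones (adjusted p = 0.031).

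*CXCL2*, another CXCR2 ligand, was above background on all arrays. Its brightest probe (chr4:74962985-74963044, minus strand) read 5.97 and 6.23 in untreated CONT1 and CONT2, and 7.20 and 7.88 after 5-aza-dC. In TET1-KD1 it read 5.56 before and 6.13 after, and in TET1-KD2 6.43 before and 6.37 after. The treated control clones lay above the other 6 arrays. The rise in the control clones was 1.44 (SE 0.35, adjusted p = 0.020). The difference in the knockdown clones was 0.26 (SE 0.35, adjusted p = 0.69). Whether the 2 responses differ was tested directly: the difference between them was -1.18 (95% interval -2.39 to 0.02, adjusted p = 0.21), and with the clone as a block its adjusted p was 0.095. The call in the control clones was lost without the untreated CONT1 array (1.31, adjusted p = 0.097), without the untreated CONT2 array (1.57, adjusted p = 0.064) and without the treated CONT2 array (1.10, adjusted p = 0.094). The second *CXCL2* probe (chr4:74964342-74964401) read higher in CONT1, CONT2, TET1-KD1 and TET1-KD2 by 0.98, 0.81, 0.62 and 0.26, with adjusted p = 0.12 in the control clones and 0.014 with the clone as a block.

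*CXCL3*, the third gene of this group, had 1 probe (chr4:74902702-74902761, minus strand). It read 3.69, 4.85, 3.54 and 3.25 in untreated CONT1, CONT2, TET1-KD1 and TET1-KD2, and 6.05, 5.92, 3.64 and 4.96 after treatment. The treated control clones were again above the other 6 arrays. The probe passed the filter only through the treated control clones, and in TET1-KD1 it was not above background in either state, which gives no response for that clone. The fitted difference in the control clones was 1.72 (SE 0.52, adjusted p = 0.040), which sets the treated level partly against a CONT1 reading below background. The call was lost with the clone as a block (adjusted p = 0.055, or 0.11 with a GC trend subtracted), under quantile normalization (0.065), without the filter on dim probes (0.071) and on the spike-ins of the first slide (0.051). It was lost as well without any 1 array of the control clones except untreated CONT2, and without either untreated knockdown array, with values from 1.14 (without untreated CONT1) to 1.79 (without treated CONT2). Of the untreated arrays only CONT2 was above background. In the knockdown clones the difference was 0.91 (SE 0.52, adjusted p = 0.32).

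*CXCL5*, also called ENA-78, went the other way. Its probe (chr4:74861898-74861957, minus strand) read 8.13 and 8.33 in untreated CONT1 and CONT2, and 9.42 and 8.46 in untreated TET1-KD1 and TET1-KD2. After 5-aza-dC it read 7.19, 7.10, 8.70 and 7.92. Each clone read lower after treatment than before, and within each state the knockdown clones lay above the control clones. The fitted difference was -1.08 in the control clones (SE 0.38, adjusted p = 0.061) and -0.63 in the knockdown clones (SE 0.38, adjusted p = 0.34), so neither was called. The fall in the control clones was called with the clone as a block (adjusted p = 0.0081), under quantile normalization (0.0496) and without either untreated knockdown array (0.032). With the block the difference in the knockdown clones had an adjusted p of 0.060. Of the 5 chemokines that carry the motif, *CXCL5* was thus the gene that read lower after treatment in all 4 clones.

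**Figure D2:**
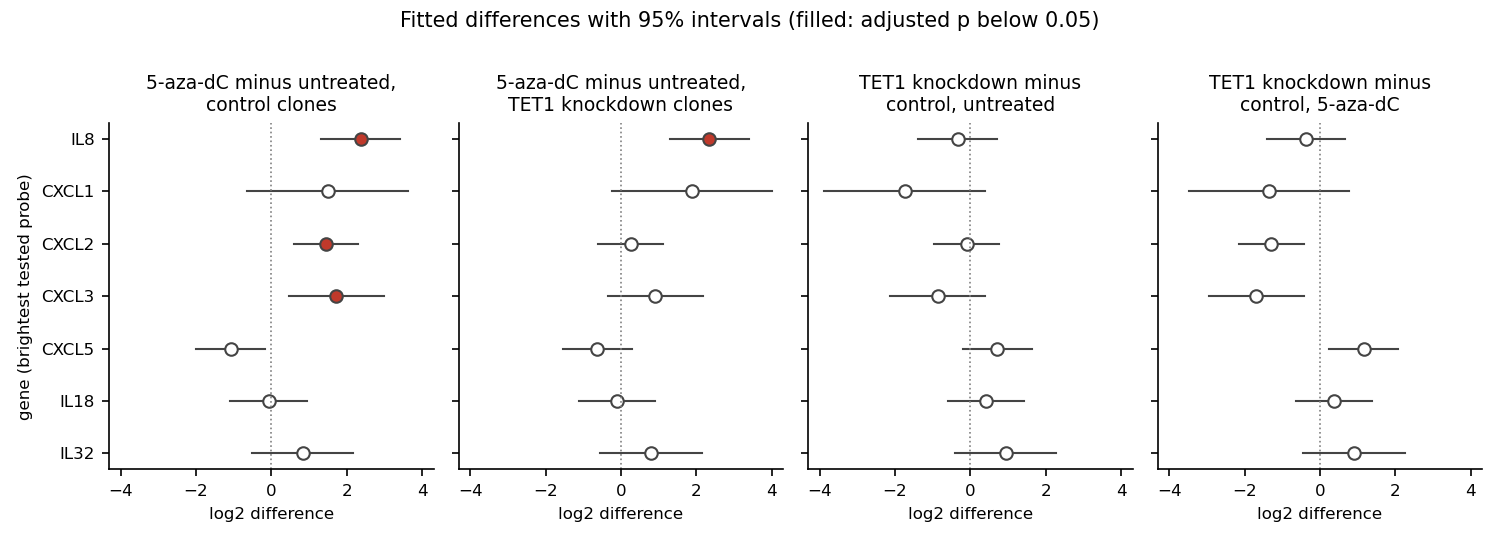
Fitted differences (log2, x axis) for the brightest tested probe of the 7 tested genes in 4 comparisons, with 95% intervals from limma. Filled points passed an adjusted p of 0.05: *IL8*, *CXCL2* and *CXCL3* in the control clones and *IL8* in the knockdown clones, with none in the comparisons between kinds of clone. All untreated *IL8* readings, and all untreated *CXCL3* readings but that of CONT2, were below background.

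*CCL20*, *CXCL14* and *IL1A* could not be tested, because their probes were not above background on both arrays of any condition. *CCL20*, whose probe spans chr2:228681100-228681836 and so crosses an intron, read 3.49, 3.06, 2.31 and 2.72 in untreated CONT1, CONT2, TET1-KD1 and TET1-KD2 and 4.32, 4.70, 4.10 and 4.46 after treatment. Only treated TET1-KD2 was above background. *CXCL14* (chr5:134907494-134907553, minus strand) read 1.93 to 2.32 on the untreated arrays and 3.25 to 4.14 on the treated arrays, and was not above background on any array. *IL1A*, an alarmin of damaged epithelium (chr2:113532362-113532421, minus strand), read 2.04 to 2.42 untreated and 2.74 to 3.20 treated, again never above background. For these 3 genes each treated array read above each untreated one, but in this range a higher reading gives no level and no fold. How many other dim probes read in this order was not counted. If every probe was tested regardless of brightness, *CCL20* was called in both kinds of clone and *CXCL14* in the control clones. Of all 50543 probes, 20.4% were then called in the control and 4.47% in the knockdown clones. The median difference of all these probes was 0.27 in the control and -0.19 in the knockdown clones.

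*IL18* was the clear contrast, with a signal far above background on all arrays. This cytokine is stored as a precursor in intestinal epithelium and released after cleavage by caspase-1. Its probe (chr11:112020811-112020870, minus strand) read 11.11, 10.75, 11.69 and 10.99 in untreated CONT1, CONT2, TET1-KD1 and TET1-KD2 and 10.72, 11, 11.80 and 10.67 after treatment. Of the clones, CONT2 and TET1-KD1 read higher after treatment and CONT1 and TET1-KD2 lower. The difference was -0.08 in the control clones (95% interval -1.09 to 0.94) and -0.10 in the knockdown clones (95% interval -1.12 to 0.91), with adjusted p of 0.90 in each.

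*IL32* gave different results on its 2 probes. The brighter one (chr16:3119014-3119073) read 4.85, 4.32, 4.92 and 6.11 in untreated CONT1, CONT2, TET1-KD1 and TET1-KD2, and 5.36, 5.46, 5.62 and 7.0 after treatment. TET1-KD2 was the highest clone in either state. Each clone read higher after treatment, by 0.51 to 1.14, but the difference was not called in the control clones (0.83, SE 0.55, adjusted p = 0.27) or the knockdown clones (0.80, SE 0.55, adjusted p = 0.41). With the clone as a block it was called in the control clones (adjusted p = 0.032) and not in the knockdown clones (adjusted p = 0.073).

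The second *IL32* probe (chr16:3119308-3119367) read 2.20, 2.82 and 2.36 in untreated CONT1, CONT2 and TET1-KD1, none above background, and 7.0 in TET1-KD2. After 5-aza-dC it read 6.91, 7.19, 6.36 and 7.91. Thus 3 clones went from background to a signal near that of untreated TET1-KD2, which itself read 0.91 higher. The treated control clones were at least 6.64-fold above their untreated level (adjusted p = 0.042). The call was lost without any 1 array of the control clones (adjusted p from 0.11 to 0.15) and without either treated knockdown array (adjusted p = 0.058), and without the filter on dim probes (0.074). The knockdown clones as a group were not called (2.46, SE 1.40, adjusted p = 0.31), but without the untreated TET1-KD2 array the difference was 4.78 (adjusted p = 0.016), with TET1-KD1 as the only untreated array left. Since *IL32* is spliced in several ways and the exons under the probes were not looked up for hg19, which transcripts each probe reports was not tested.

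**Figure D3:**
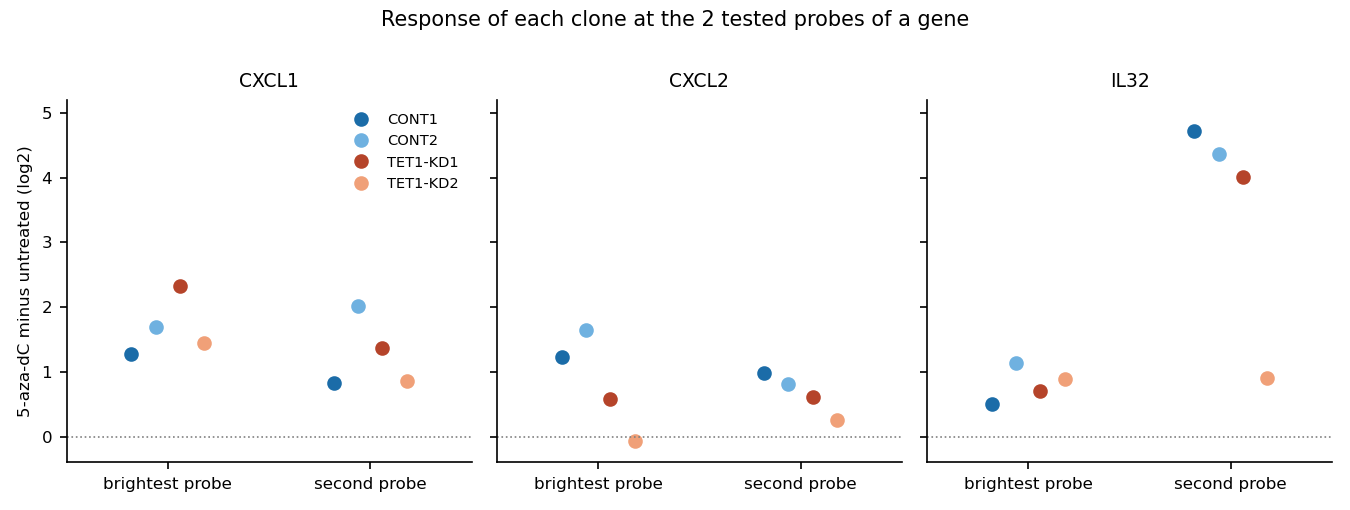
Response of each clone to 5-aza-dC (treated minus untreated signal, log2, y axis) at the brightest and the second tested probe (x axis) of the 3 genes with 2 tested probes. At the second *IL32* probe CONT1, CONT2 and TET1-KD1 are drawn at 4.01 to 4.71, values that rest on untreated readings below background and give no exact response.

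Knockdown and control clones were also compared directly. Without treatment 0 of the 7 tested genes were called, beside 0.0147% of all tested probes, and 0 had an unadjusted limma p below 0.05, beside 8.26% of all tested probes. *CXCL1* showed the lowest value, -1.74 (95% interval -3.88 to 0.39, adjusted p = 0.63), which came mainly from TET1-KD1. *IL32* read 0.93 higher (adjusted p = 0.65) and *CXCL5* 0.71 higher (adjusted p = 0.64) in the knockdown clones, and the values of the other tested genes lay between -0.87 and 0.41.

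After 5-aza-dC 0 of 7 were called between the kinds of clone, beside 18.8% of all tested probes, while 3 had an unadjusted p below 0.05, beside 35.7% of all tested probes. *CXCL2* was lower in the knockdown clones by a difference of -1.29 (SE 0.35, adjusted p = 0.051), and *CXCL3* by -1.68 (SE 0.52, adjusted p = 0.071). *CXCL5* had a difference of 1.16 (SE 0.38, adjusted p = 0.080). The treated knockdown and control clones did not overlap at 5 of the 7 genes (*CXCL1*, *CXCL2*, *CXCL3*, *CXCL5* and *IL32*), beside 63.4% of all tested probes. *CXCL2* passed the threshold under quantile normalization (adjusted p = 0.047), under normexp background correction (0.025), with 50 added before the log2 (0.031), among probes above background on all arrays (0.036), after the second slide was put on the spike-ins of the first (0.045), and without either untreated knockdown array (0.036). Without 1 of the 4 treated arrays its adjusted p was 0.066 to 0.19. *CXCL3* passed with normexp (0.014), with 50 added (0.034) and without treated TET1-KD2 (0.043), and *CXCL5* without either untreated knockdown array (0.0495). The difference in response between the kinds of clone called 0 of the 7 genes, beside 5.58% of all tested probes, and 0 had an unadjusted p below 0.05, beside 24.7% of all tested probes. Its values ran from -1.18 for *CXCL2* to 0.45 for *CXCL5*.

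*CXCL1* had the widest range among the brightest tested probes, 4.82 over the 8 arrays, and its pattern was compared with all other tested probes. Among the probes kept, the nearest by the root mean square difference of centred log2 signals over the 8 arrays were *ZNF20* (0.30), *DUSP13* (0.35), *PCK2* (0.37), *HOXC4* (0.39) and *LSS* (0.40). All 5 were lowest in untreated TET1-KD1 and higher in each clone after treatment. This is the pattern of *CXCL1* for which they were picked, so it is no separate result. In untreated TET1-KD1 *ZNF20* read 2.11 and *PCK2* 1.97, under the lowest signal above background on that array (4.19).

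The surrounding pathway was described with gene lists chosen with earlier results of these arrays known. Beside the counts for these lists, 41.8% of all tested probes were called in the control clones (19.2% higher, 22.6% lower). In the knockdown clones 11.8% were called (8.90% higher, 2.89% lower), and for the difference in response 5.58%. Of the 16 receptors listed, 11 were tested. *CXCR1* and *CXCR2*, the receptors of the neutrophil-attracting ligands, were not above background in any condition. *CCR6*, the receptor of *CCL20*, fell in the control clones by 1.09 on the log2 scale (adjusted p = 0.0088), from 7.54 and 7.30 to 6.49 and 6.18. *IL18RAP*, an accessory chain of the IL-18 receptor, read 8.68 and 8.96 in untreated and 12.20 and 12.15 in treated control clones, against 9.22 and 8.74 untreated and 8.85 and 8.57 treated in the knockdown clones. It was the only listed receptor whose response differed between the kinds of clone (-3.62, SE 0.31, adjusted p = 0.0079). In all, 5 receptors rose and 1 fell in the control clones, and 1 (*TNFRSF1B*, a TNF receptor, at least 2.36-fold) rose in the knockdown clones.

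Of the genes that process or block IL-1 family cytokines, 11 of 15 were tested, and 3 rose and 3 fell in the control clones while 2 rose in the knockdown clones. *PYCARD*, the adaptor that joins inflammasome sensors to caspase-1, read 1.94 to 3.25 on the untreated arrays, never above background, and 8.92, 8.15, 8.10 and 7.17 in treated CONT1, CONT2, TET1-KD1 and TET1-KD2. It rose at least 18.6-fold in the control clones (adjusted p = 0.00038) and at least 9.38-fold in the knockdown clones (adjusted p = 0.00077). *NLRP1*, an inflammasome sensor, rose by 1.92 (adjusted p = 0.0015) and 2.62 (adjusted p = 0.00087). *CASP1*, a protease that cleaves IL-18, was not above background in any condition. *CASP4*, another caspase of the list, read 11.59, 11.78, 8.65 and 10.14 in untreated CONT1, CONT2, TET1-KD1 and TET1-KD2. After treatment it read 10.57, 11.06, 8.03 and 8.56, and was called lower in the treated knockdown than control clones (-2.52, adjusted p = 0.020).

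Of 21 NF-kB signalling genes, all tested, 6 rose and 2 fell in the control clones, and 1 rose and 1 fell in the knockdown clones. *NFKB1*, which encodes a DNA-binding subunit, fell by 0.86 (adjusted p = 0.0073) and by 0.81 (adjusted p = 0.024) on the log2 scale, while *IRAK2*, a kinase of IL-1 receptor signalling, rose by 0.94 in each kind of clone (adjusted p = 0.018 and 0.045). *RELB*, another subunit, rose by 1.27 in the control clones (adjusted p = 0.0069). Of 10 NF-kB inhibitors 1 was called, *TNFAIP3*, higher by 0.81 in the control clones (adjusted p = 0.029). Of 16 tested targets of NF-kB outside the 10 genes, 3 rose and 3 fell in the control clones and 2 rose in the knockdown clones. *MMP9*, a matrix protease, rose by 2.33 (adjusted p = 0.0083) and 2.85 (adjusted p = 0.010), and *PIGR*, the carrier of IgA through epithelium, at least 1.62-fold (adjusted p = 0.00020) and at least 1.34-fold (adjusted p = 0.00048). *PLAU*, of the same list, fell by 1.68 on the log2 scale in the control clones (adjusted p = 0.011).

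Most other chemokines gave little signal: 5 of 22 could be tested, and *CXCL9*, *CXCL10* and *CXCL11* were not above background in any condition. Of the 5, 1 rose and 2 fell in the control clones, and 1 rose in the knockdown clones. *CXCL12* fell at least 1.10-fold (adjusted p = 0.012) and *CCL15* at least 2.12-fold (adjusted p = 0.013) in the control clones, both to below background. Between treated clones both were called higher in the knockdown clones (adjusted p = 0.041 and 0.030), beside 18.8% of all tested probes called. *CCL26*, which attracts eosinophils, read 7.05, 6.99, 6.74 and 4.97 in untreated CONT1, CONT2, TET1-KD1 and TET1-KD2 and 9.39, 9.73, 9.31 and 8.48 after treatment. It rose by 2.54 (adjusted p = 0.015) in the control clones and 3.04 (adjusted p = 0.022) in the knockdown clones. Of 27 other cytokines 11 were tested, and 3 rose and 1 fell in the control clones. In the knockdown clones 2 rose. *IL11*, a cytokine of the IL-6 family, rose by 1.86 (adjusted p = 0.0091) in the control clones and 2.52 (adjusted p = 0.0077) in the knockdown clones. *IL17C*, an epithelial cytokine of the IL-17 family, was below background untreated. It rose at least 2.21-fold (adjusted p = 0.0030) in the control clones and was called higher, with no fold, in the knockdown clones (adjusted p = 0.023). *TNF*, *IL6* and *IL1B* were not above background in any condition.

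**Figure D4:**
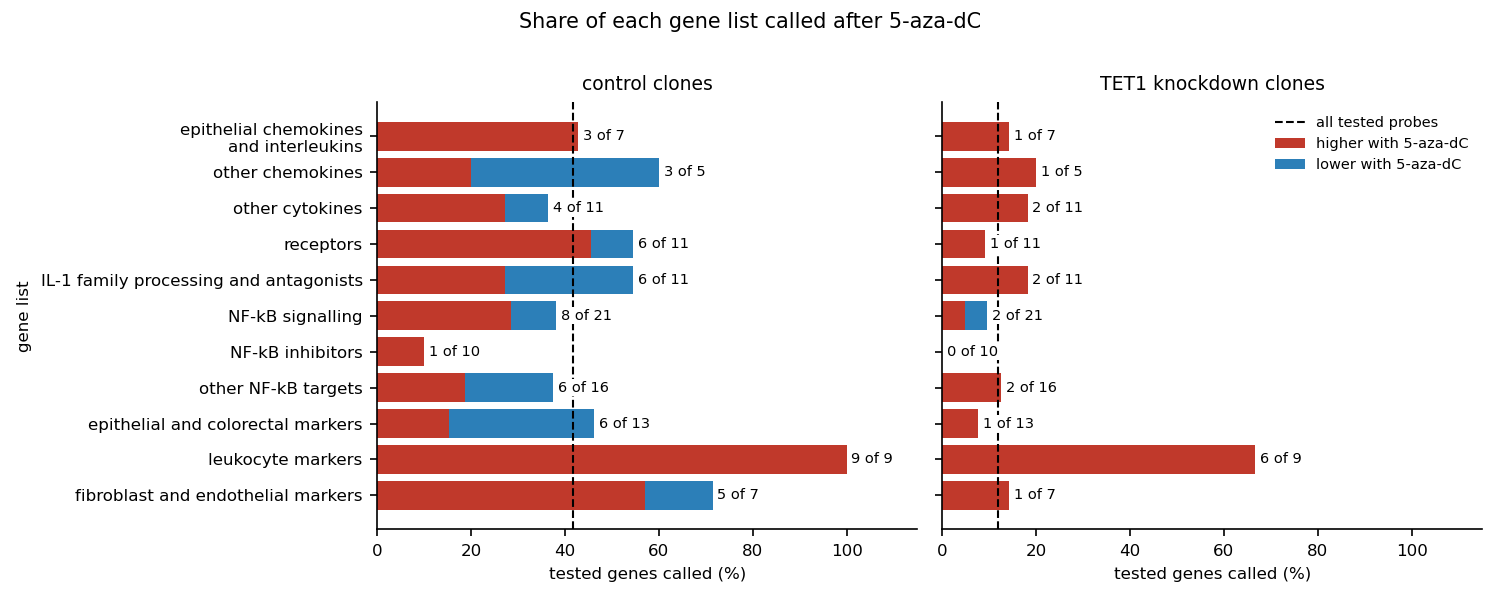
Share of the tested genes of each list that were called after 5-aza-dC (x axis, percent), split into higher and lower, in control and knockdown clones, with the number called of the number tested. The dashed line is the share of all tested probes called in either direction, 41.8% and 11.8%. The 7 tested of the 10 genes described here lie close to it, just above, in each panel. Leukocyte markers, other chemokines, IL-1 family processing and antagonists, and fibroblast and endothelial markers also lie above it in both panels.

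Markers of other cells were read on the same arrays. Of 15 epithelial and colorectal markers 12 or 13 were above background on both arrays of each condition. Of the 13 tested, 2 rose and 4 fell in the control clones and 1 rose in the knockdown clones. Between treated clones 3 were higher in the knockdown clones, beside 11.9% of all tested probes called higher there. Of 13 leukocyte markers on the array 9 were tested. All 9 rose in the control and 6 in the knockdown clones, beside 19.2% and 8.90% of all tested probes called higher. The summed signal of the leukocyte markers (linear scale) was 743 to 1075 on the untreated arrays, 4021 to 5209 on the treated control arrays and 2375 to 4301 on the treated knockdown arrays. *MS4A1*, *FCGR3A* and *NKG7* were not above background in any condition. Of 11 fibroblast and endothelial markers 7 were tested, of which 4 rose and 1 fell in the control clones and 1 rose in the knockdown clones. These markers moved with 5-aza-dC in the same arrays as the chemokines, and their part in the chemokine results was not tested.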

How the data were processed

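The authors amplified 100 ng of RNA, hybridized it to SurePrint G3 Human GE arrays annotated on hg19, and deposited the scanner output of Feature Extraction 10.7.3.1, whose spot intensity values are already background-subtracted but not normalized between arrays. The paper names GeneSpring GX and t tests; the normalization is not given in the sources used here. Arrays were grouped by title.

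The deposited intensity of each non-control spot was divided by its array's 75th percentile, multiplied by the geometric mean of these percentiles, set to at least 1 and put on the log2 scale. Flagged spots were left out, saturated spots kept, and spots of a probe averaged. A probe was tested (27286 of 50599) if in 1 or more conditions both arrays had it above background, that is, in at least 0.5 of its spots. Differences came from limma 3.58.1 (R 4.3.3), 1 fit over all 8 arrays, with Benjamini-Hochberg adjustment over all tested probes and a threshold of 0.05. A gene was called by its brightest tested probe. "At least" folds set the brighter mean against the lowest signal above background. The adjusted p beside such a fold tests the fitted difference, not the bound. The fit was tested on simulated data. Promoters came from RefSeq (GRCh38.p14), and plots from matplotlib 3.10.9.

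Genes and lists were chosen with earlier results of these data known. Named were all 10 genes, *TET1*, and from each list at most the 3 called genes with the largest change per comparison. Some list genes not above background were named afterwards. Treated and untreated arrays of a clone are pairs by their titles: their deviations from the condition means correlated at 0.20 in control and 0.48 in knockdown clones (27286 probes). The 2 clones of a kind were taken as replicates, so p-values cover the spread between clones. With 2 per condition, the number of arrays limits the precision. Alternatives were other background correction, normalization, filters, offset, tests, probes, arrays and spike-in scaling, the authors' value table and the clone as a block.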

Additional observations from a re-analysis of the deposited data

How the results depend on the processing

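Counts of genes called among the 10 depended on the settings. In the control clones 3 were called, against 5 with the clone as replicate block (pairing each treated array with its own clone), 6 in a fit of those 4 arrays alone, 1 among probes above background on all arrays (of 3 testable genes), 0 by the methods' t-test after adjustment (2 before), and 1 to 3 without 1 array. In the knockdown clones 1 was called, against 3 with the block and a GC trend subtracted, 2 with no filter, 0 with normexp, with 50 added, among probes above background on all arrays and by the methods' t-test (1 before adjustment), and 0 to 1 without 1 array. Between treated clones 0 were called, against 2 with normexp or 50 added, 1 with quantile normalization, among probes above background on all arrays or on the spike-ins of the first slide, and 0 to 2 without 1 array. The block could not be fitted between kinds of clone, which share no clone. As the share of all tested probes, the control clones gave 41.8% in the setting reported, 50.4% with the block and 46.2% in those 4 arrays alone. The knockdown clones gave 11.8%, against 31.3% (block and GC trend), 4.47% (no filter), 11.6% (normexp) and 12.7% (50 added). Treated clones gave 18.8% between kinds, against 17.6% (normexp), 21.7% (50 added), 19.4% (quantile) and 24.9% (spike-ins). Among probes above background on all arrays the 3 shares were 39.0%, 5.69% and 21.9%. Over all probes, the calls ranged from 4162 to 14282 in the control clones (11401 in the setting reported), 0 to 8537 in the knockdown clones (3218), 0 to 34 between untreated clones (4), 4 to 6802 between treated clones (5121) and 47 to 2440 for the difference in response (1522). The spike-in scaling moved the median of all tested probes in the control clones from -0.08 to -0.31, and the GC trend to -0.23.

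Differences that changed sign were not called under any setting in which they did so. For the difference in response, *CXCL1* became -0.21 with normexp and -0.22 with 50 added; *IL8* became 0.14 with quantile normalization, 0.69 with the block and GC trend and 0.33 on the spike-ins; *IL18* became 0.055, 0.12 and 0.29 in the same settings; and *IL32* became 0.13 with 50 added and 0.24 on the spike-ins. In the knockdown clones quantile normalization gave -0.038 for *CXCL2* and 0.016 for *IL18*. Between treated clones normexp gave -0.030 for the second *IL32* probe. The cause was not tested.

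Without 1 array, the response in the control clones ran from -0.26 to 0.10 for *IL18*. In the knockdown clones it ran from -0.18 to 0.69 for *CXCL2*, -0.036 to 0.91 for its second probe and -0.67 to 0.46 for *IL18*. Between untreated clones the range was -0.87 to 0.19 for *IL8*, -0.54 to 0.33 for *CXCL2*, -0.92 to 0.027 for its second probe and -0.15 to 4.49 for the second *IL32* probe, and between treated clones -0.80 to 0.056 for *IL8*, -0.19 to 0.94 for *IL18* and -0.68 to 0.86 for the second *IL32* probe. For the difference in response it was -0.56 to 0.50 for *IL8*, -0.87 to 1.66 for *CXCL1*, -0.997 to 0.37 for its second probe, -0.93 to 0.013 for the second *CXCL2* probe, -0.025 to 0.93 for *CXCL5*, -0.60 to 0.54 for *IL18*, -0.72 to 0.66 for *IL32* and -4.40 to 0.24 for its second probe. A lone array left in a condition was assumed to vary like the other conditions. Of all 965 recomputed differences of single probes, 847 kept direction and side of the threshold. Low signal limits *IL8*, *CXCL3*, *CCL20*, *CXCL14* and *IL1A*.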
